A study of Mus musculus with 9 samples.

Results

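The genes described here encode Wnt ligands and the receptors and modulators that act on them, measured in keratinocytes, the main cell type of the epidermis. They were chosen by name from the epidermal table of a mouse RNA sequencing series. The choice took every row whose gene symbol began with Wnt, Fzd, Rspo, Sfrp or Dkk followed by a digit, and the rows of Frzb, Wif1, Axin2, Lrp5, Lrp6, Nkd1 and Nkd2. It found 49 rows, which carry 48 gene symbols because Fzd10 had 2 rows, among 36442 rows in all. The rule used no measured value, although it was chosen with earlier results of these data known.

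The keratinocytes came from the epidermis of adult mouse skin and were sequenced directly after cell sorting, with 2 libraries labelled WT and 2 labelled Mi2. Knock-out is the term the column headers use for Mi2, and Mi-2β is the chromatin remodelling enzyme encoded by Chd4. The promoter that drives a Cre recombinase, if one was used, the mouse strain, the ages beyond adult and how many animals made up a library are not given here. The labels do not say that the replicates came from separate mice, so p-values measure only the spread between these libraries, which may be technical. Library kits of 2 kinds are listed without saying which library used which, so a kit effect and the genotype cannot be told apart. The series also holds regulatory T cells, which were not used here.

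Wnt proteins are secreted, lipid-modified signals. They bind Frizzled receptors together with the co-receptors Lrp5 or Lrp6, which stabilises β-catenin so that it can act with TCF/LEF transcription factors in the nucleus. R-spondins strengthen the signal by clearing the ubiquitin ligases Rnf43 and Znrf3, which otherwise remove Frizzleds from the membrane. Sfrp, Wif1 and Dkk proteins act outside the cell, mostly as antagonists, and Axin2 and the Nkd proteins are inhibitors inside the cell that the pathway itself induces. In skin, Wnt signalling is best known for hair follicle formation and for the start of each hair growth phase, and keratinocytes both make and receive Wnts.

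The 4 libraries held between 5682391 and 8913804 reads over genes, and the Wnt rows took between 0.113% and 0.209% of them. The unit throughout is the authors' normalized read count, called normalized reads below. Chd4 stood at 1607 and 1942 normalized reads in WT and at 734 and 1207 in Mi2, a log2 change of -0.91 (SE 0.272, limma adjusted p = 0.0456). Leaving out either WT library or Mi2 replicate 1 ended that call (adjusted p from 0.0995 to 0.213), as did edgeR (0.0547), no filter (0.0754) and no trend (0.108). Chd4 was still read in both Mi2 libraries. Krt5, a defining gene of basal keratinocytes, was abundant in every library, at 125451 and 117800 in WT and at 165634 and 135266 in Mi2. Of the 10 genes of the basal and interfollicular list, none was higher and 2 were lower, namely Krt15 and Krt1. Krt14 and Col17a1, the next in abundance after Krt5, were not called. Mi2 replicate 1 stood apart in the share of mitochondrially encoded reads, 29.7% against 12.9% to 15.5% in the other libraries. In these bulk samples, fewer cells of a type and less RNA per cell cannot be told apart.

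Markers of other skin cells and of hair follicle keratinocytes also differed between the groups. The summed level of 14 fibroblast, dermal papilla and dermis genes was 1628 and 1541 normalized reads in WT, against 5030 and 3733 in Mi2, with 3 of 8 tested genes higher (Sparc, Thy1 and Fbln1). The median log2 change of the 8 was -0.36. Col1a1, Col1a2 and Col3a1, at -1.65, -1.62 and -2.39 with overlapping groups, were not called. The defining fibroblast genes Dcn, Pdgfra and Lum stayed at or under 6.95 in every library, and Postn, among the 3 most abundant of that list, was not called. The sum of the 6 endothelial and mural genes was 40.7 and 31.2 in WT and 937 and 843 in Mi2, carried by the mural genes Acta2 and Rgs5, with Tek at or under 7.96 and the endothelial genes Cdh5 and Kdr at 0. The sum of 12 hair follicle keratinocyte genes was 52657 and 44666 in WT and 19061 and 25606 in Mi2. That fall was carried by Krt15, at 49093 and 40508 in WT and at 4202 and 8781 in Mi2. Krt15, which is also on the basal and interfollicular list, fell by 2.88 on the log2 scale (limma adjusted p = 0.00434). Of the 10 tested hair follicle genes, 4 were higher (Krt17, Cd34, Gli1 and Krt75), 2 lower (Krt15 and Msx2) and 4 not called. The sum therefore does not describe the list as a whole. Krt17, another keratin of the hair follicle list, rose by 2.72, and Krt79 was not called. Of the 7 melanocyte genes, Mitf stood at 76.4 and 96.6 in WT and at 7.96 and 6.81 in Mi2, and Pmel was not called. Dct, under the filter, stood at 14.9 and 14.5 in WT and at 1.33 and 0 in Mi2. The other 4 stayed under 10 in every library. The 7 sebocyte genes summed to 2970 and 3840 in WT and to 6268 and 7018 in Mi2, with Fasn and Mgst1 higher and Scd1 not called. The other 4, Cidea, Elovl3, Awat1 and Pparg, stayed under 10 in every library. The 10 Langerhans and myeloid genes summed to 675 and 942 in WT and to 1697 and 2069 in Mi2, with Epcam and Cd74 higher and H2-Ab1 not called. The 5 erythroid genes summed to 858 and 2754 in WT and to 211 and 376 in Mi2, with Hba-a1, Hbb-b1 and Hba-a2 lower. Of the T lymphocyte genes Thy1 alone passed the filter, while Cd3e and Ptprc were at or under 11.9. What part these shifts have in the Wnt results below was not tested.

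Of the 49 Wnt rows, 27 rows, or 26 genes, had a mean of at least 10 normalized reads over the 4 libraries and were tested. At an adjusted p under 0.05, 3 of them were higher in Mi2 and 7 rows, which are 6 genes, were lower. The remaining 17 were not called. Over all 14461 genes tested, 28.2% were called, 15.1% as higher and 13.1% as lower. The shares among the tested Wnt rows were 37.0%, 11.1% and 25.9%. Both Fzd10 rows count in these shares, and by gene 9 of 26 were called, 6 of them as lower. Groups did not overlap in 20 of the 27 rows, or 74.1%, against 70.7% of all genes tested, so that count was near the background. The median log2 change was -0.31 over the tested Wnt rows and -0.03 over all genes tested. A gene can pass the filter through 1 group alone, so these shares describe the tested rows and not the whole family.

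Direction depended on the scaling at the level of all genes. Scaling without the mitochondrially encoded genes moved the median of all genes to -0.27, and scaling without the 50 most abundant genes moved it to -0.16. The first of these gave 1531 genes higher and 2743 lower, against 2185 and 1900 with the authors' values. The 3 Wnt genes that rose and the 7 rows that fell kept their calls under both.

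**Figure D1:**
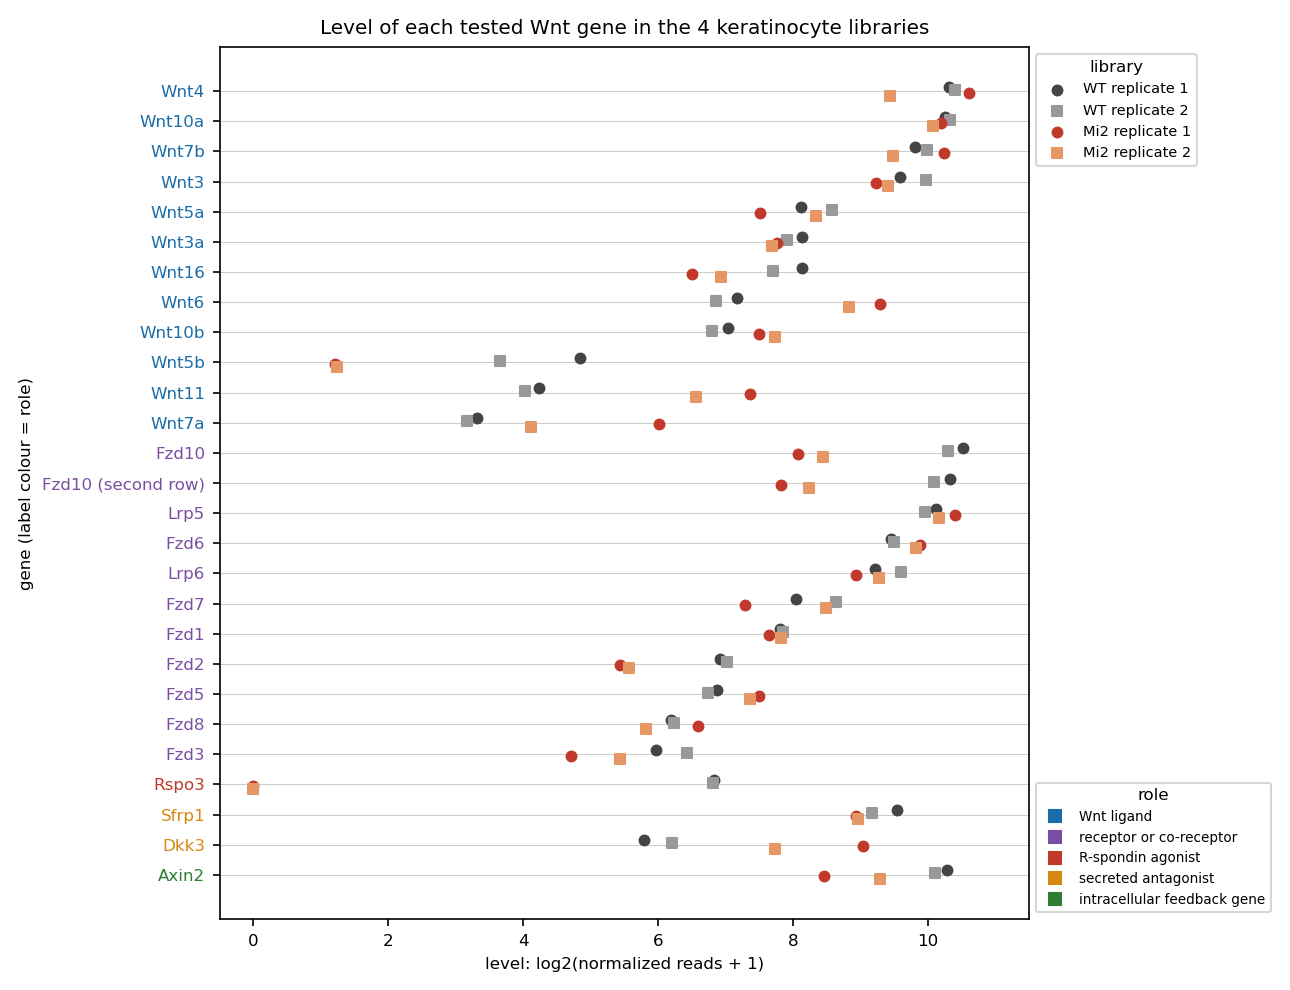
Level of each tested Wnt row in each of the 4 keratinocyte libraries, as log2(normalized reads + 1) on the horizontal axis, with genes grouped by role. The Mi2 points of Wnt6, Wnt11 and Dkk3 lie to the right of the WT points, those of Fzd10, Fzd2, Wnt16, Wnt5b and Axin2 lie to the left, and Rspo3 lies at 0 in both Mi2 libraries.

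Among the ligands, 12 of 19 genes were tested, with 2 higher, 2 lower and 8 not called. Wnt6 (ENSMUSG00000033227, chr1:74771892-74785322 on GRCm38) is a ligand expressed in epithelia including the epidermis. It stood at 144 and 115 normalized reads in WT and at 625 and 454 in Mi2. Both Mi2 libraries lay above both WT libraries, and the log2 change was 2.04 (SE 0.247, limma adjusted p = 0.00276), or 4.12-fold on the scale of log2(value + 1), which understates the change of low genes. Wnt11 (ENSMUSG00000015957, chr7:98835112-98855195), a ligand best known for β-catenin-independent signalling in cell movement, stood at 17.9 and 15.2 normalized reads in WT and reached 165 and 94.0 in Mi2. Every Mi2 value exceeded every WT value, and the log2 change was 2.84 (SE 0.382, adjusted p = 0.00387), or 7.16-fold.

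Wnt16 (ENSMUSG00000029671, chr6:22288227-22298522), a ligand known for its part in bone strength, was the more abundant of the 2 ligands that fell, at 282 and 208 normalized reads in WT and at 90.2 and 121 in Mi2. Its groups did not overlap, and it fell by 1.20 on the log2 scale (SE 0.271, limma adjusted p = 0.0188). That call ended when WT replicate 1 was left out (-0.98, adjusted p = 0.188) or WT replicate 2 (-1.42, adjusted p = 0.0622). Wnt5b (ENSMUSG00000030170, chr6:119432531-119544347), a relative of Wnt5a, was low throughout, at 27.8 and 11.6 normalized reads in WT and at 1.33 and 1.36 in Mi2, each Mi2 value being 1 read. It rested on 44 reads in WT and 2 in Mi2, a Mi2 to WT ratio of 0.0729 with a 95% exact interval of 0.00856 to 0.279. The interval covers counting error alone. The limma call (adjusted p = 0.0231) ended without WT replicate 2 (adjusted p = 0.114), and without WT replicate 1 the gene was under the filter.

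The ligands with the most normalized reads were not called. Wnt10a, a ligand required for skin appendages and teeth, stood at 1220 and 1284 normalized reads in WT and at 1172 and 1086 in Mi2. Its log2 change was -0.15 with a 95% interval of -0.58 to 0.28 (adjusted p = 0.562). Wnt4 stood at 1269 and 1355 in WT and at 1560 and 695 in Mi2, so that the Mi2 libraries lay on either side of WT. Its log2 change was -0.33 (95% interval -1.18 to 0.51), and without Mi2 replicate 1 it was -0.92 and called (limma adjusted p = 0.0201). Wnt7b stood at 895 and 1021 in WT and at 1205 and 714 in Mi2, also on either side, with a log2 change of -0.04 (95% interval -0.69 to 0.60). The 2 Mi2 libraries thus differed by more than the WT libraries did in both genes, with the higher value in replicate 1.

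Wnt3 stood at 767 and 1005 normalized reads in WT and at 601 and 680 in Mi2 (log2 change -0.46, 95% interval -0.96 to 0.04). Wnt3a, its close paralog, stood at 280 and 241 in WT and at 218 and 206 in Mi2 (-0.29, 95% interval -0.79 to 0.20). Wnt5a, a ligand of β-catenin-independent signalling, stood at 277 and 381 in WT and at 182 and 326 in Mi2 (-0.42, 95% interval -1.17 to 0.34). The groups overlapped for Wnt5a and not for the other two, and no call was made for any of them.

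Wnt10b and Wnt7a came closest to a call among the remaining ligands. Wnt10b, which promotes hair follicle growth, stood at 130 and 111 normalized reads in WT and at 180 and 211 in Mi2, a log2 change of 0.70 with a 95% interval of 0.14 to 1.25 (adjusted p = 0.0645). Wnt7a stood at 8.93 and 7.99 in WT and at 63.7 and 16.4 in Mi2, so the 2 Mi2 libraries were far apart. Its log2 change was 1.83 with a 95% interval of 0.24 to 3.41 (limma adjusted p = 0.0814). Count tests on the recovered reads called it (edgeR adjusted p = 0.0483, DESeq2 adjusted p = 0.0423), as did the fits with a replicate block (0.0366) and without Mi2 replicate 2 (0.00820).

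Levels of different ligands were compared per kilobase of exon, summed over GENCODE exons of each gene. Wnt10a was the most abundant ligand on that scale in each of the 4 libraries, with 31.7% and 31.3% of the summed Wnt ligand level in WT and 26.1% and 31.1% in Mi2. Wnt6 was sixth in both WT libraries, at 4.21% and 3.15%, and in both Mi2 libraries it ranked 3, at 15.7% and 14.6%. Wnt11 held 0.277% and 0.222% in WT and 2.19% and 1.60% in Mi2. The sum itself was 1558 and 1663 normalized reads per kilobase in WT and 1816 and 1416 in Mi2, with overlapping groups. These sums and shares were not tested, since with 2 libraries against 2 an exact permutation test cannot give a p below 0.333.

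Several ligand genes are neighbours in the genome. Wnt6 and Wnt10a lie on the same strand of chromosome 1, 6.2 kb apart on GRCm38. Wnt6 rose 4.12-fold in these libraries, while the 95% interval of the log2 change of Wnt10a was -0.58 to 0.28. Wnt10b and Wnt1 lie 11.7 kb apart on chromosome 15, and Wnt1 had 0 reads in every library. On chromosome 11, Wnt3a and Wnt9a lie 16.2 kb apart and Wnt9b and Wnt3 lie 24.3 kb apart. Wnt3a and Wnt3 were tested, and their neighbours Wnt9a and Wnt9b stayed at or under 11.9 normalized reads.

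Promoter windows are shown for Wnt6, Wnt11 and Wnt5b, which are 3 of the 4 called ligands, and for Axin2, the feedback gene described below, because they moved in different directions. For Wnt11 and Wnt5b, which have several annotated starts, the start whose window held a motif match was chosen. Each window is the 250 bases before an annotated RefSeq start on GRCm38.p6, written 5′ to 3′ on the gene's strand. Capitals mark a match to the motif of TCF/LEF factors, searched on both strands in 4 versions. The first version was CTTTGAA, another that differs in its end was CTTTGAT, and the remaining versions were spelled CTTTGTA and, with its final base changed, CTTTGTT. The windows are chr1:74771642-74771891 (plus strand) for Wnt6, chr7:98834862-98835111 (plus) for the first Wnt11 start, chr6:119449387-119449636 (minus) for 1 of the 3 Wnt5b starts, and chr11:108920099-108920348 (plus) for Axin2.
Wnt6: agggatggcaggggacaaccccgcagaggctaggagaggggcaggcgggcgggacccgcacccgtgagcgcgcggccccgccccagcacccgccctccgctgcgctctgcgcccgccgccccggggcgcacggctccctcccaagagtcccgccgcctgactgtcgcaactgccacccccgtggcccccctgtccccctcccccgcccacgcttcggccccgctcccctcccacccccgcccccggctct
Wnt11: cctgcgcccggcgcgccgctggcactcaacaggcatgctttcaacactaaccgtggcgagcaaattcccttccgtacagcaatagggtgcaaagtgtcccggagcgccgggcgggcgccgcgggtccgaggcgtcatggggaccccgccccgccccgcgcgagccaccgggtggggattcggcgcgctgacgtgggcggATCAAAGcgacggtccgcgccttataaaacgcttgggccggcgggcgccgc
Wnt5b: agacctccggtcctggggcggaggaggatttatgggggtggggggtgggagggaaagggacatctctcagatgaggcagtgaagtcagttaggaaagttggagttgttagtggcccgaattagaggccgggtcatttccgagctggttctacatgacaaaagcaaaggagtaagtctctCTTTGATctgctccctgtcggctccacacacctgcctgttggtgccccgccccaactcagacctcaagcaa
Axin2: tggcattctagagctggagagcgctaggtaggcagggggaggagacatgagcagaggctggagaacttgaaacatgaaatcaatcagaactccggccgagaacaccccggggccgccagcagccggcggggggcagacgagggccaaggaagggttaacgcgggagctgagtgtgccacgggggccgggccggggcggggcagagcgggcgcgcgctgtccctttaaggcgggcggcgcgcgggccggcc
The Wnt11 window holds ATCAAAG, the reverse complement of CTTTGAT, 51 bases before the start, and the Wnt5b window holds CTTTGAT 71 bases before the start. The other Wnt11 window, the other 2 Wnt5b windows and the windows of Wnt6, Axin2 and Wnt16, the fourth called ligand, held none of the 4 versions. Over the Wnt genes with a window, 32 genes and 35 windows, a match was found in 4, or 11.4%, against 14.8% of the 32851 promoter windows of the RefSeq table. The median GC content was 66.8% in the Wnt windows and 52.4% over all windows. A match describes letters and is not a measured binding site.

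Among receptors and co-receptors, 11 of 13 rows were tested, with 3 rows (2 genes) lower, none higher and 8 not called. Fzd10, a Frizzled receptor, was the receptor with the most reads per kilobase in WT. Its first row (ENSMUSG00000081683, chr5:128600844-128604093) stood at 1474 and 1266 normalized reads in WT and at 268 and 349 in Mi2. Both Mi2 libraries lay under both WT libraries, and it fell by 2.16 on the log2 scale (SE 0.214, limma adjusted p = 0.00142), or 4.46-fold. The second row (ENSMUSG00000089856), which GENCODE M21 does not list, stood at 1290 and 1088 in WT and at 226 and 302 in Mi2, and fell by 2.18 (adjusted p = 0.00151). It held between 84.2% and 87.5% of the first row's level in each library, so both rows can hold the same reads. They are 1 gene in the counts of genes, but both enter the counts, shares and medians of rows.

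Fzd2 (ENSMUSG00000050288, chr11:102604396-102608058) stood at 120 and 129 normalized reads in WT and at 42.5 and 46.3 in Mi2. The groups were well apart, and it fell by 1.47 on the log2 scale (SE 0.271, limma adjusted p = 0.00995). The call ended when WT replicate 1 (adjusted p = 0.0943) or WT replicate 2 (adjusted p = 0.105) was left out, at log2 changes of -1.52 and -1.42.

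Fzd3, known for planar polarity and for hair orientation, stood at 61.5 and 84.9 normalized reads in WT and at 25.2 and 42.2 in Mi2, a log2 change of -1.12 (95% interval -2.02 to -0.22, adjusted p = 0.0651). It passed with scaling without mitochondrially encoded genes (adjusted p = 0.0446), with a replicate block (0.0304) and without Mi2 replicate 2 (0.0328). Fzd6, a receptor with a role in hair patterning, stood at 704 and 722 in WT and at 950 and 910 in Mi2. Its groups did not overlap, and its log2 change of 0.38 was not called (95% interval -0.04 to 0.81, limma adjusted p = 0.148). Fzd5 stood at 116 and 106 in WT and at 179 and 164 in Mi2, also without overlap (log2 change 0.62, 95% interval 0.08 to 1.16, adjusted p = 0.0831).

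For the remaining tested Frizzleds the groups overlapped. Fzd7 ranged from 264 to 399 normalized reads in WT and from 155 to 360 in Mi2, Fzd1 from 224 to 231 and from 199 to 226, and Fzd8 from 72.4 to 74.8 and from 55.9 to 95.5. Their log2 changes were -0.45, -0.10 and -0.01, with 95% intervals of -1.41 to 0.50, -0.59 to 0.39 and -0.80 to 0.78. The Mi2 libraries of Fzd7 and Fzd8 were farther from each other than the WT libraries were, with opposite order.

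The co-receptors were measured in every library and were not called. Lrp5 stood at 1116 and 992 normalized reads in WT and at 1352 and 1148 in Mi2 (log2 change 0.24, 95% interval -0.22 to 0.70). Lrp6 stood at 597 and 779 in WT and at 490 and 620 in Mi2 (-0.31, 95% interval -0.84 to 0.22), with overlapping groups. Per kilobase of exon, Lrp5 lay above Lrp6 in each of the 4 libraries, with 72.4% and 64.1% of their sum in WT and 79.5% and 72.2% in Mi2.

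The make-up of the Frizzled level changed with Fzd10. On the scale of normalized reads per kilobase, the Frizzled genes, with Fzd10 counted once, summed to 778 and 752 in WT and to 421 and 480 in Mi2. Without Fzd10 the sums were 325 and 363 in WT and 339 and 372 in Mi2, which overlap. Fzd10 held 58.3% and 51.8% of the sum in WT and 19.6% and 22.4% in Mi2. Fzd6 held 18.8% and 19.9% in WT and 46.8% and 39.4% in Mi2, so the order of these 2 receptors was exchanged between the groups. No test was made of these shares, for the reason given for the ligands.

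**Figure D2:**
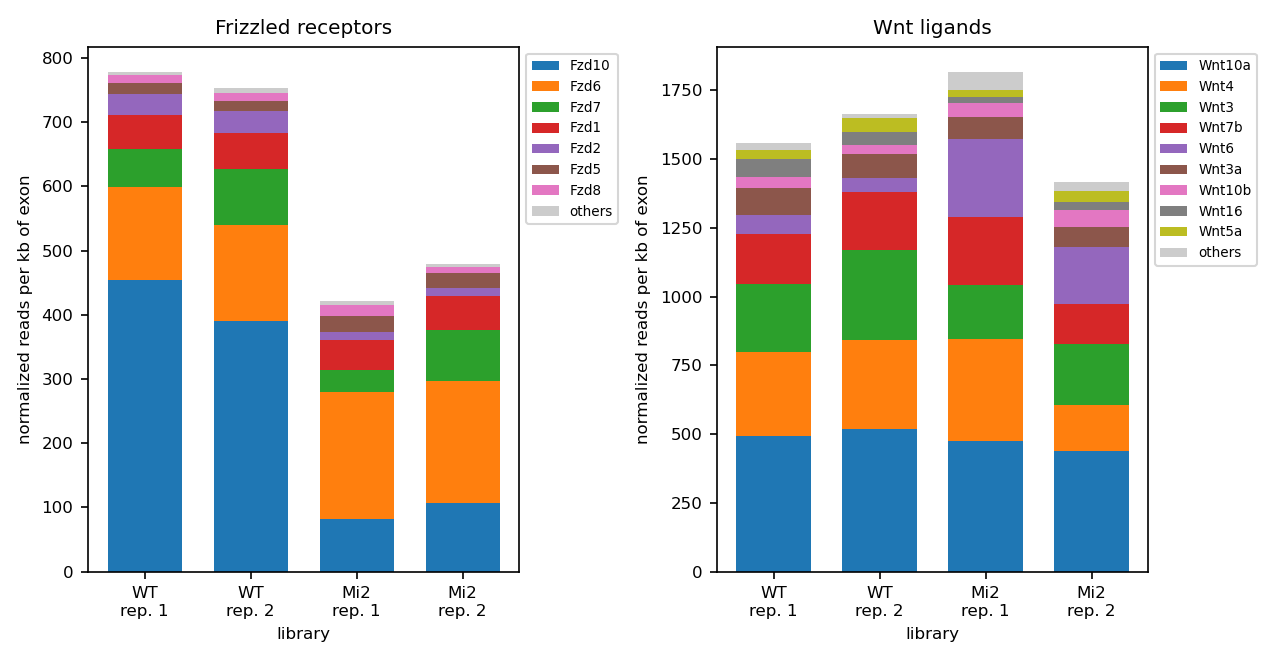
Normalized reads per kilobase of exon in each library, stacked by gene, for the Frizzled receptors (left) and the Wnt ligands (right), with Fzd10 counted once. The Frizzled bars are lower in both Mi2 libraries, at 421 and 480 against 778 and 752, through the Fzd10 segment, while the ligand bars overlap between groups and hold a wider Wnt6 segment in Mi2.

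Rspo3 (ENSMUSG00000019880, chr10:29452416-29535867), the R-spondin that amplifies Wnt signals through Lgr receptors, was the R-spondin of the 4 that passed the filter. It had 114 and 154 reads in the WT libraries, or 113 and 112 normalized reads, and 0 reads in both Mi2 libraries. With 3 reads in each Mi2 library as the floor, it was at least 27.9-fold lower in Mi2. The limma adjusted p was 8.4e-04, and it stayed under 0.05 in each of the 16 alternative settings. The fitted log2 change of a gene with 0 reads depends on the pseudocount and is no bound. Setting Rspo3 to its bound could not move the median of the tested Wnt rows (-0.31), because Rspo3 stayed the lowest of them. The other R-spondins were nearly absent, with Rspo4 at 8 reads in WT and 3 in Mi2, Rspo1 at 1 and 0, and Rspo2 at 0 and 1.

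Of the 10 secreted antagonists, Dkk3 and Sfrp1 were tested. Dkk3 (ENSMUSG00000030772, chr7:112116017-112159057), a divergent member of the Dickkopf family whose effect on Wnt signalling varies by cell type, stood at 54.6 and 73.3 normalized reads in WT and at 527 and 213 in Mi2. Both Mi2 libraries lay far above WT, although they differed from each other by more than the WT libraries did. The log2 change was 2.38 (SE 0.426, limma adjusted p = 0.00917), or 5.22-fold, and 1.73 without Mi2 replicate 1, where the call remained (adjusted p = 0.0171). Sfrp1, a secreted Frizzled-related protein that binds Wnts, stood at 746 and 576 in WT and at 488 and 499 in Mi2. Its groups did not overlap, and its log2 change of -0.41 was not called (95% interval -0.90 to 0.08, adjusted p = 0.173). Sfrp1 held between 99.2% and 99.5% of the Sfrp level per kilobase in each library. The other Dickkopf genes had few reads or none, with Dkk1 at 0, Dkk2 at 1 read in each group and Dkk4 at 2 reads in Mi2.

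Axin2 (ENSMUSG00000000142, chr11:108920349-108950783), a scaffold of the β-catenin destruction complex and a widely used readout of Wnt signalling, stood at 1252 and 1109 normalized reads in WT and at 353 and 629 in Mi2. Every Mi2 value lay under every WT value. Axin2 fell by 1.32 on the log2 scale (SE 0.288, limma adjusted p = 0.0171), or 2.50-fold. The call ended when WT replicate 1 was left out (adjusted p = 0.0999), when WT replicate 2 was (0.0566) and in limma with no intensity trend (0.0561). Nkd2, a Dishevelled-binding inhibitor under the filter, had 34 reads in WT and 2 in Mi2, a WT to Mi2 ratio of 10.6 with a 95% exact interval of 2.72 to 91.1. When no filter was used its adjusted p was 0.0483. Nkd1 had 4 reads in WT and 7 in Mi2, all 7 in Mi2 replicate 1.

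**Figure D3:**
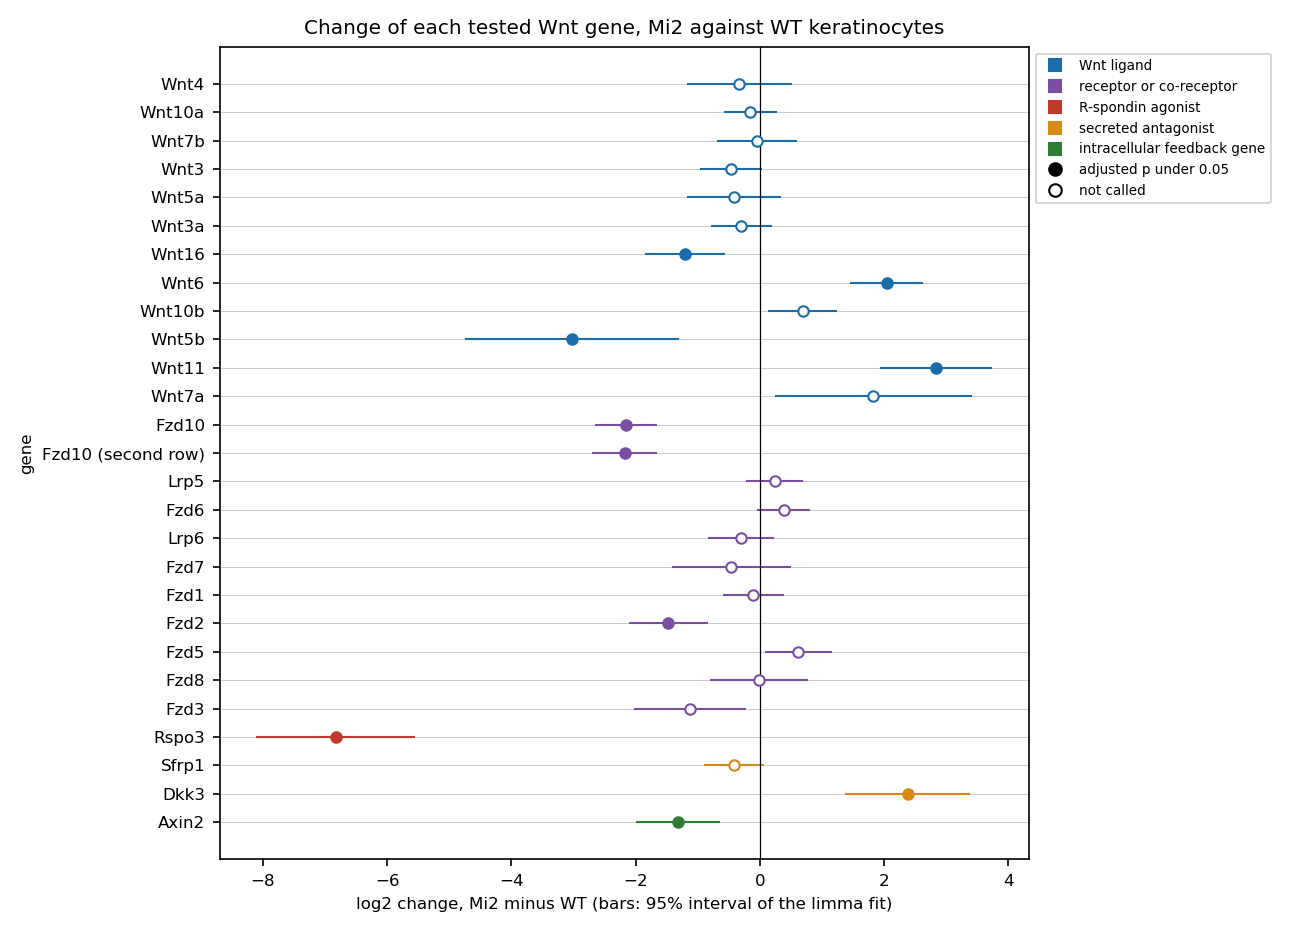
Log2 change (Mi2 minus WT) of each tested Wnt row with the 95% interval of the limma fit, coloured by role, with filled points at an adjusted p under 0.05. Wnt6, Wnt11 and Dkk3 lie to the right of 0 with filled points, 7 rows lie to the left with filled points, and the point of Rspo3 depends on the pseudocount because both Mi2 libraries held 0 reads.

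Below the filter were 22 rows, of which Dkk1, Sfrp4, Wnt1 and Wnt8a had 0 reads in every library. The other 18 had reads, with a highest value of 17.4 normalized reads, reached by Wnt2b in WT replicate 2. Fzd4, a receptor for Wnts and for Norrin, had 6 reads in WT and 19 in Mi2, a Mi2 to WT ratio of 5.08 with a 95% exact interval of 1.95 to 15.5, and an adjusted p of 0.0822 when no filter was used. Wnt2b had 34 reads in WT and 7 in Mi2 (ratio 0.330, 95% exact interval 0.123 to 0.756, adjusted p = 0.156 without a filter). Wif1, a secreted Wnt-binding inhibitor, had 20 reads in WT, 17 of them in replicate 1, and 2 in Mi2 (ratio 0.160, interval 0.0182 to 0.660). Wnt9a had 10 reads in WT and 9 in Mi2, and Wnt9b had 6 in each group. Sfrp2 had 5 reads in WT and 0 in Mi2, and Wnt2 had 3 and 0. Wnt8b and Fzd9 each had 0 in WT and 3 in Mi2, Sfrp5 had 0 and 2, and Frzb had 0 and 1. At this depth, 3 reads in a library stood for an average of 2.58 normalized reads in WT and 4.03 in Mi2, so differences among these last genes were not detectable.

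The wider pathway was read from 6 lists, 105 rows in all, of which 84 were tested. Of these, 18 were higher, 18 lower and 48 not called, with a median log2 change of 0.09. Over all 14461 genes tested, 28.2% were called, 15.1% as higher and 13.1% as lower. The counts of each list below have the same background. Scaling without mitochondrially encoded genes gave 14 higher and 23 lower, where all genes gave 1531 higher and 2743 lower. The lists were chosen with earlier results of these data known.

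Of the genes for Wnt secretion and ligand processing, 2 of 8 tested rose, none fell and 6 were not called. Porcn, the enzyme that attaches the lipid to Wnt proteins, stood at 55.6 and 39.2 normalized reads in WT and at 370 and 309 in Mi2 (log2 change 2.83, limma adjusted p = 0.00135). Trabd2b, a protease that inactivates Wnts, listed in the table as Gm12824, stood at 5.95 and 12.3 in WT and at 73.0 and 132 in Mi2 (3.37, adjusted p = 0.00500). Both were well separated between the groups. Wls, the carrier of Wnts to the cell surface and the most abundant gene of the list that was not called, stood at 1326 and 1232 in WT and at 784 and 915 in Mi2 (-0.59, adjusted p = 0.0562).

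Of the membrane partners of Wnt signalling, 3 of 16 tested rose, 7 fell and 6 were not called. Rnf43, the ligase that R-spondins counteract, stood at 540 and 550 normalized reads in WT and at 184 and 169 in Mi2 and fell by 1.62 on the log2 scale (limma adjusted p = 0.00271). Lgr6, an R-spondin receptor that marks stem cells of the upper hair follicle, stood at 905 and 542 in WT and at 253 and 158 in Mi2 and fell 3.49-fold (adjusted p = 0.00944). For Rspo3, Lgr6 and Rnf43, both Mi2 libraries lay under both WT libraries, but groups did not overlap in 70.7% of all genes tested. Lgr4, also of the list, had overlapping groups and was not called, at 273 and 294 in WT and at 330 and 264 in Mi2. Lrp4, a relative of Lrp5 and Lrp6 that binds Wnt inhibitors, stood at 2535 and 2777 in WT and at 608 and 786 in Mi2 and fell by 1.94 (adjusted p = 0.00186). Prickle1 fell by 2.43 and Prickle2 by 2.20, while Vangl1 rose by 1.61 (adjusted p = 0.00208, 0.00140 and 0.00570), and all 3 are known from planar cell polarity. Others known from it were not called, with log2 changes of -0.49 for Vangl2, -0.44 for Celsr1, the most abundant uncalled gene of the list, and 0.19 for Celsr2. Lgr4, Vangl2, Celsr2 and the next 4 genes stand outside the rule for named genes and were named after their values were seen. Znrf3 fell by 0.87 and Ror1 by 3.13, while Kremen2 rose by 1.42 and Ptk7 by 0.91. Lgr5, a marker of hair follicle stem cells, was under the filter at 8.93 and 16.0 in WT and at 1.33 and 1.36 in Mi2.

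Among other Wnt inhibitors, 5 of 11 were tested, with 2 higher, 1 lower and 2 not called. Igfbp4, a binding protein of insulin-like growth factors that also blocks Wnt receptors, stood at 216 and 282 normalized reads in WT and at 2372 and 1323 in Mi2 and rose by 2.84 on the log2 scale (limma adjusted p = 0.00184). Dact2, an inhibitor inside the cell, rose by 2.04 (adjusted p = 0.0475). Apcdd1, a membrane-bound inhibitor known for its role in hair growth, stood at 1470 and 1344 in WT and at 517 and 405 in Mi2 and fell by 1.62 (adjusted p = 0.00324). Sostdc1, the most abundant that was not called, stood at 918 and 1000 in WT and at 1020 and 2444 in Mi2.

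Of the cytoplasmic transducers, 2 of 22 tested rose, 1 fell and 19 were not called. Ctnnb1, which encodes β-catenin and was named outside the rule, stood at 2366 and 2675 normalized reads in WT and at 2846 and 2814 in Mi2 (log2 change 0.17, limma adjusted p = 0.543). Tnks2, which destabilises Axin proteins, rose by 1.06 (adjusted p = 0.0120), Ctnnbip1, an inhibitor of the β-catenin and TCF contact, rose by 0.94 (adjusted p = 0.0294), and Dvl1 fell by 0.99 (adjusted p = 0.0457). Csnk1a1, the kinase that primes β-catenin for destruction and the most abundant gene not called, stood at 2538 and 2451 in WT and at 3279 and 2993 in Mi2.

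Of the TCF/LEF factors and their co-regulators, 3 of 16 tested rose, 3 fell and 10 were not called. Pygo1, a co-activator that binds the β-catenin partner Bcl9, stood at 204 and 217 normalized reads in WT and at 2.65 and 8.17 in Mi2 and fell by 5.19 on the log2 scale (limma adjusted p = 0.00127). Tcf7 stood at 101 and 79.1 in WT and at 547 and 324 in Mi2 and rose by 2.22 (adjusted p = 0.00399). Tcf7l1, mostly a repressor in keratinocytes, rose by 1.46 (adjusted p = 0.0448, lost in 8 of 16 settings), as did the co-repressor Ctbp2 (1.46, adjusted p = 0.00597). Bcl9 fell by 0.67 and the β-catenin antagonist Cby1 by 1.85 (adjusted p = 0.0467 and 0.0466), and Bcl9l, the most abundant, was not called. Lef1 was under the filter at 6.95 or less in every library.

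Genes commonly used as Wnt targets moved both ways, with 7 of 21 tested rows higher, 9 lower and 5 not called. Bmp4 stood at 581 and 714 normalized reads in WT and at 55.7 and 76.3 in Mi2 and fell by 3.28 on the log2 scale (limma adjusted p = 8.4e-04). Ascl2, a transcription factor of intestinal stem cells, fell by 3.83 (adjusted p = 0.00136). Cd44, a hyaluronan receptor, stood at 1267 and 1557 in WT and at 8277 and 5434 in Mi2 and rose by 2.25 (adjusted p = 0.00262). Rnf43 and Apcdd1 fell and Tcf7 rose, as given above. Ccnd1, which encodes cyclin D1, had a log2 change of 0.04, with Mi2 values of 3409 and 1276 on either side of the WT values of 2139 and 1934. Many pathways besides Wnt control these genes, Sox4 is counted in 2 rows, and the target genes Notum and Sp5 had 0 reads in every library.

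**Figure D4:**
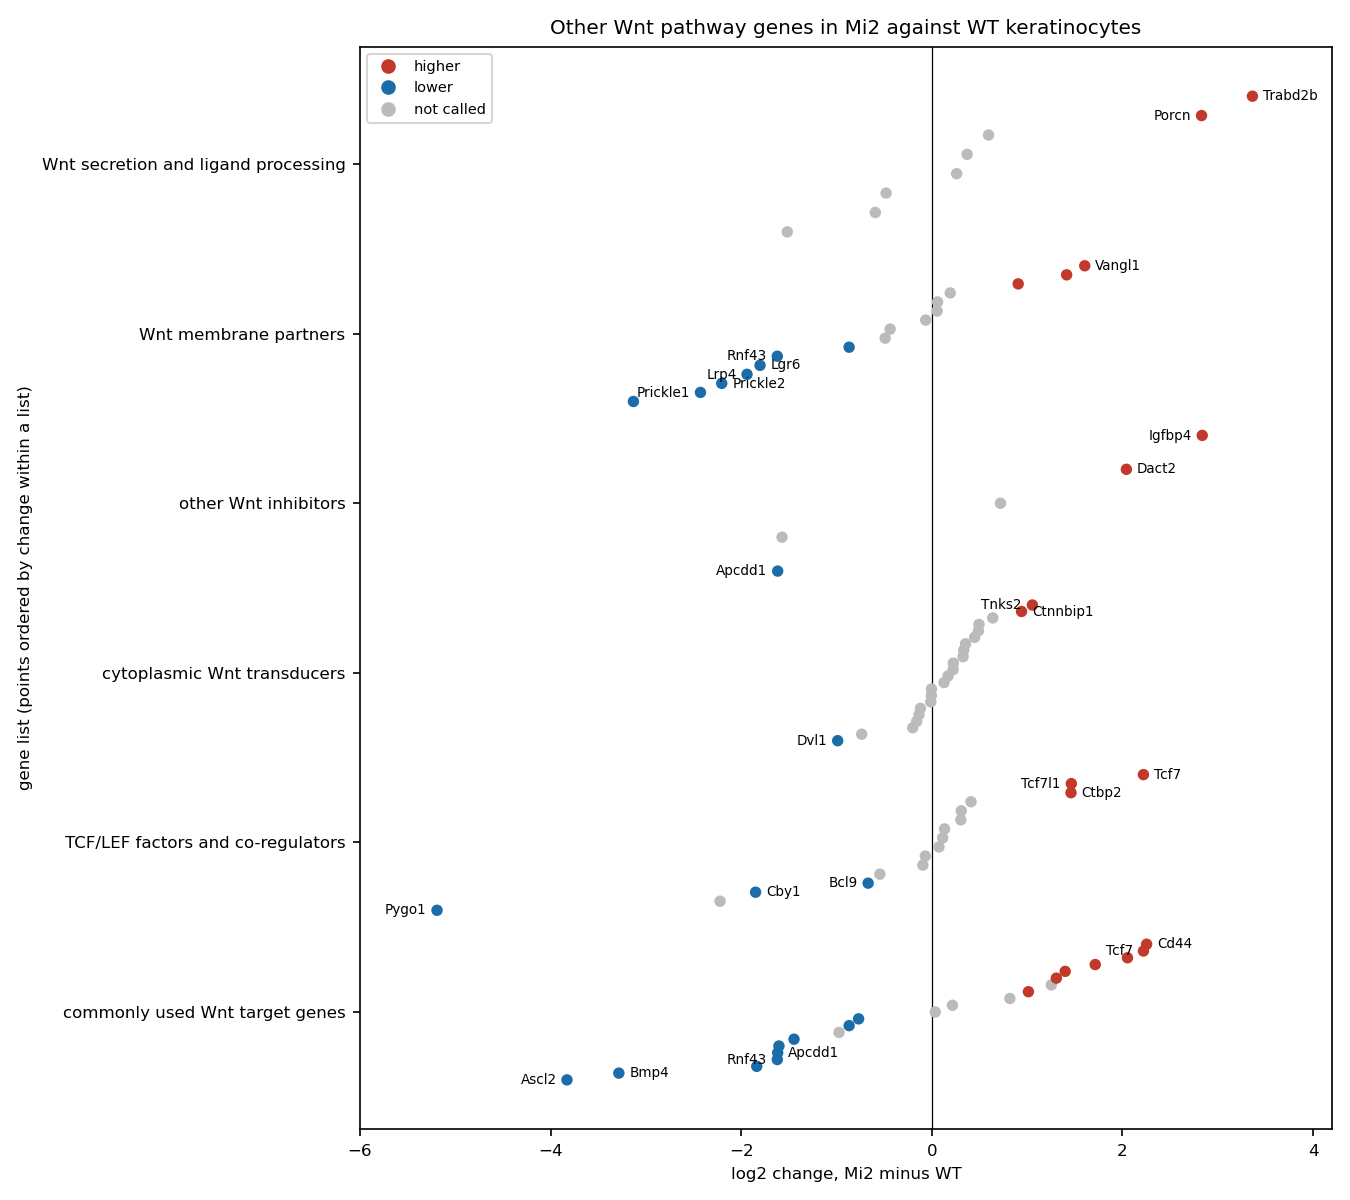
Log2 change (Mi2 minus WT) of each tested gene of the 6 pathway lists, ordered by change within its list, with red for higher, blue for lower and grey for not called, and up to 6 called genes named per list. Called points lie on both sides of 0 in 5 of the 6 lists, and 19 of 22 cytoplasmic transducers are grey.

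Leaving out libraries moved some of these counts. Leaving out either WT library also lowered the number of calls over all genes tested, so the drop was not particular to the Wnt rows. Without WT replicate 1 or without WT replicate 2, 3 Wnt rows fell instead of 7, namely Rspo3 and both rows of Fzd10. The pathway lists then gave 7 higher and 9 lower in the first case, and 12 and 11 in the second. Without Mi2 replicate 1, the library with the high mitochondrial share, 3 Wnt rows rose and 8 fell. Wnt6, Wnt11, Dkk3, Rspo3 and both rows of Fzd10 kept their calls in every one of the 16 alternative settings. In the pathway lists, the calls of Tcf7l1 and Cby1 each ended in 8 of 16 settings, with adjusted p up to 0.254 and 0.263. Those of Dvl1 ended in 7 (up to 0.189), Bcl9 in 6 (up to 0.274) and Ctnnbip1 in 5 (up to 0.218), and that of Dact2 ended in 7 of the 14 settings in which it was tested (up to 0.234). Leaving out WT replicate 1 or WT replicate 2 ended each of these 6 calls. Fewer settings ended the calls of Kremen2 (4), Znrf3 (3), Ptk7 (3) and Ror1 (2), and leaving out WT replicate 1 alone ended those of Lgr6, Tnks2 and Ctbp2 (adjusted p = 0.0663, 0.119 and 0.0535).

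**Figure D5:**
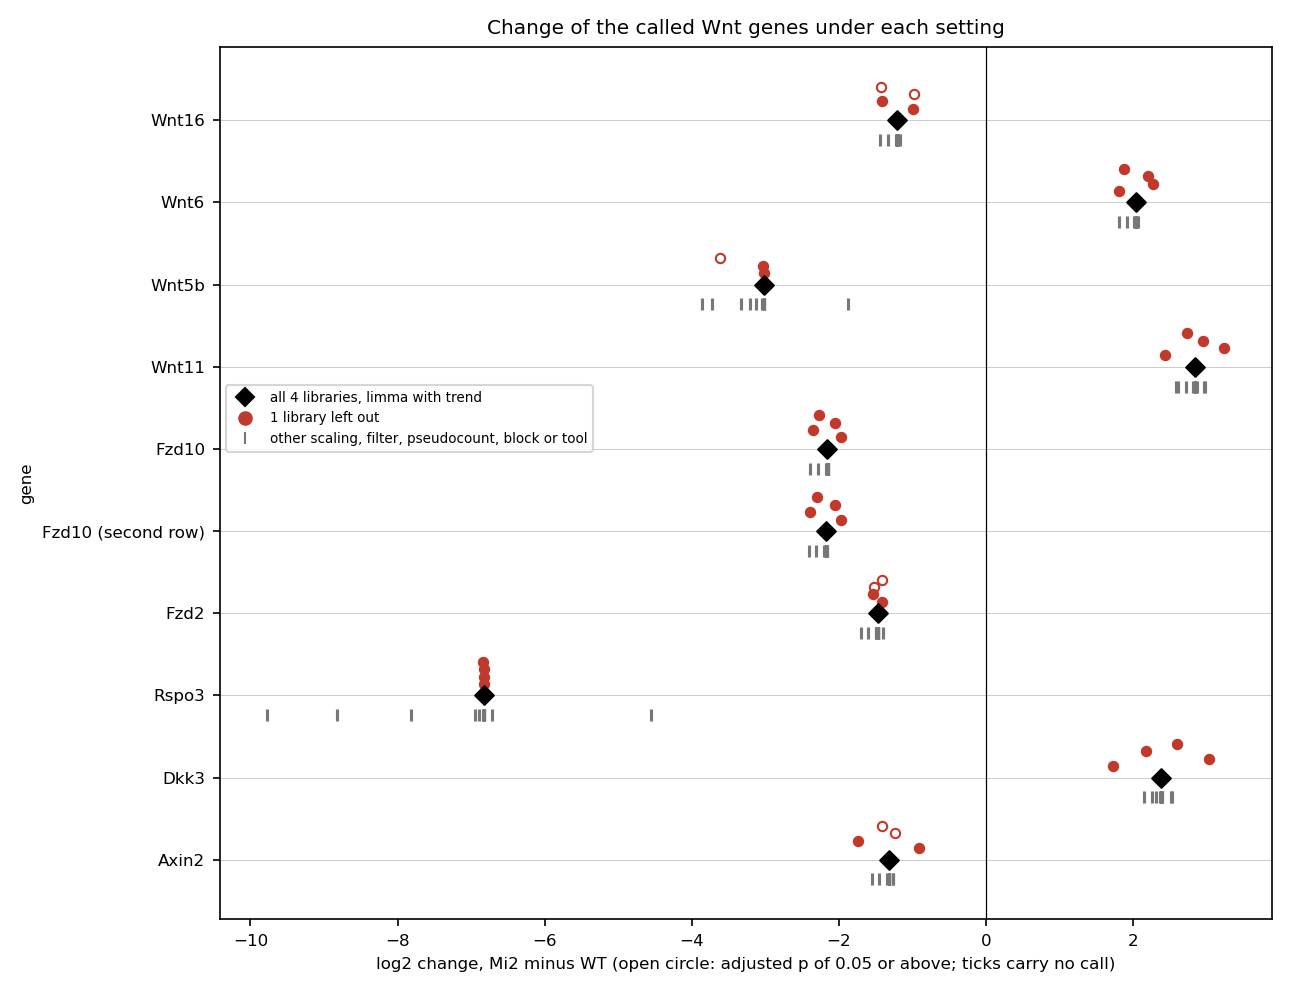
Log2 change (Mi2 minus WT) of each called Wnt row with all 4 libraries (diamonds), with 1 library left out (circles, open at an adjusted p of 0.05 or above) and under the other settings (ticks). No point lies on the other side of 0 from its diamond, Wnt16, Wnt5b, Fzd2 and Axin2 have open circles, and the ticks of Rspo3 spread because its Mi2 libraries held 0 reads.

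Genes on the opposite strand overlap 8 of the Wnt genes in GENCODE M21, and the strand setting of the counting is not given here. Reads of such pairs cannot be told apart without it. Partners were listed in the table for Axin2 and Wnt7b. Gm11670, the partner of Axin2, stood at 63.5 and 58.8 normalized reads in WT and at 27.9 and 27.2 in Mi2, low beside Axin2 in each library. AU022754, the partner of Wnt7b, was at or under 10.2. The partners of Rspo3 and Wnt11, Gm48159 and Gm8398, have no value here.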

How the data were processed

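The deposited signal of the epidermal table is a normalized read count, made by the authors with 1 factor per library, per the file headers and the values. The submitters' processing notes list bcl2fastq 1.8.3, STAR, DESeq2, mm9 and mm10 with no role; the counting program and strand setting are not given here. The 5 Treg columns were not used. In each column 100% of values were whole multiples of a smallest step, within 0.05 reads, which gave read numbers back. A unit check did not accept this for WT replicate 1, whose step is close to 1; the 9-digit values settled it.

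limma 3.58.1 in R 4.3.3, with an intensity trend, was run two-sided on log2(value + 1) for 14461 genes with a mean of at least 10, Benjamini-Hochberg adjusted over all of them and called under 0.05. A run on simulated data, with far fewer changed genes than were called here, checked the code and not these calls. Alternatives were pseudocounts of 0.5 and 5, no filter or a mean of 20, 4 other scalings, no trend, edgeR 4.0.16 and DESeq2 1.42.0 on the recovered reads, a replicate block, and leaving out each library. Replicate numbers were not treated as pairs (correlation of same-number deviations 0.123 across 14461 genes, 2 pairs). Loci and exon lengths come from GENCODE M21 on GRCm38, promoter windows from RefSeq.

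Every Wnt gene past the filter is named, with up to 6 called genes by smallest p and the most abundant uncalled gene of each pathway list and the 3 most abundant of each marker list. Further marker genes were named outside this rule, after their values were seen. Members and lists were chosen with earlier results of these data known. Reads carry no molecular identifiers, so intervals and floors cover counting error only.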

Additional observations from a re-analysis of the deposited data

How the results depend on the processing

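No Wnt gene that was called changed direction in any alternative. Fits without either WT library made fewer calls over all genes too. The count of Wnt rows higher was 3, with 3 to 4 when 1 library was left out and 3 to 4 otherwise. The count lower was 7, with 3 to 9 when 1 library was left out and 6 to 8 otherwise. The pathway lists gave 18 higher, with 7 to 20 when 1 library was left out and 12 to 21 otherwise, and 18 lower, with 9 to 23 and 12 to 23. With a replicate block the 4 counts were 4, 8, 21 and 22. The numbers are not shown to pair the samples, and the block gained Wnt7a and Fzd3 among the Wnt genes. Over the single Wnt rows, 413 values under an alternative kept their side of the threshold, 8 passed it newly and 8 no longer passed it. Among called pathway genes 499 kept it and 75 lost it; the cause was not tested. Of the genes that were not called, Wnt4, Wnt7b, Wnt5a, Fzd7 and Fzd8 took either sign, with lowest and highest log2 changes of -0.92 and 0.25, -0.42 and 0.33, -0.83 and 0.00, -1.06 and 0.15, and -0.39 and 0.37. Depth limits Wnt5b, Wnt7a and the genes under the filter most, since 1 read stands for 0.726 to 1.36 normalized reads in these libraries.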
